A study of Mus musculus with 6 samples.

Results

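Kinesin superfamily genes were described in a ribosome profiling data set of mouse oocytes. The members were all genes of the deposited table whose symbol is Kif followed by a digit and whose mean over the 6 libraries was above 0, which gave 38 of the 22416 genes used. They were divided by known role into 13 spindle and division kinesins, 16 cargo transport kinesins and 9 kinesins of cilia, flagella or other functions. Ribo-lite, a ribosome profiling method for low input, reads the short mRNA fragments that ribosomes protect from RNase I, and each library was made from 500 oocytes of wild-type mice, which per the study's methods were on a C57BL/6 background. The females were 4 weeks old and had received 5 IU of PMSG, a gonadotropin that makes follicles grow, 44 h before collection. The 3 groups of 2 libraries were WT_FGO, controls taken here as the fully grown germinal vesicle (GV) oocytes of the study's methods, WT_MII, control oocytes at metaphase II (MII) after culture, and Treat_MII, labelled only as treated, which the methods describe as culture with BYBX. BYBX is a compound that binds RNA G-quadruplexes (rG4s), stacked structures of guanine-rich RNA, and the control cultures received its solvent DMSO. The labels do not state whether treated oocytes were selected for having reached MII.

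Kinesins are motor proteins that use ATP to move along microtubules or, in some families, to take microtubules apart at their ends. During division they build the spindle, align chromosomes and organize the central spindle on which cytokinesis depends, and outside division they carry vesicles, organelles and mRNAs. A fully grown oocyte is almost silent in transcription, so the proteins made during its meiotic divisions come from stored mRNAs whose translation is switched on or off in turn.

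The libraries were shallow. Read numbers recovered from the FPKM values (fragments scaled to coding length and library size) came to between 88663 and 313872 per library, and WT_FGO was the shallower group. In a coding sequence of 1 kb, 1 read was worth 10.6 FPKM in the shallowest library and 3.02 FPKM in the deepest. The median tested gene had 13 reads over all 6 libraries, while 14 kinesins had 60 or more. Of 13 oocyte marker genes, at most 1 was at 0 in any library. Of 16 granulosa and cumulus cell markers, between 5 and 9 were at 0 in each library, and their summed level was 879 and 1857 FPKM in WT_FGO, against 2256 and 432 in WT_MII and 329 and 360 in Treat_MII. Most of the 2256 FPKM came from the marker Hsd17b1 alone. In such pooled samples fewer cells of a type and less RNA per cell cannot be told apart. Footprints also cannot be divided here into the amount of an mRNA and the number of ribosomes on it, since mRNA levels were not analysed.

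Spindle and division kinesins took a larger share of the kinesin footprints at MII than at the GV stage. The summed level of all 38 kinesins was 958 and 1099 FPKM in the WT_FGO libraries, against 2773 and 2963 in WT_MII and 2775 and 2783 in Treat_MII. Both WT_FGO libraries lay below the other 4, and WT_MII and Treat_MII overlapped. Spindle and division kinesins made up 64.2% and 65.9% of the sum in WT_FGO, 91.7% and 93.1% in WT_MII, and 94.3% and 93.9% in Treat_MII. The share of cargo transport kinesins was 27.6% and 28.4% in WT_FGO, and it lay between 4.37% and 6.58% in the 4 MII libraries. Kif23 alone gave 18.3% and 17.3% of the kinesin sum in WT_FGO and between 44.2% and 52.4% in the 4 MII libraries.

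**Figure D1:**
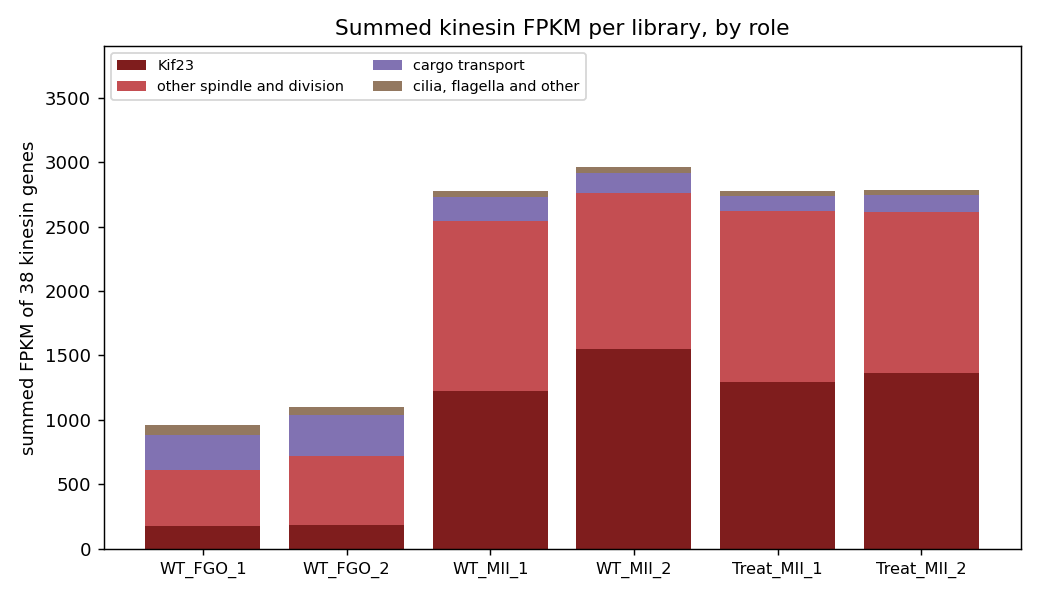
Summed FPKM of the 38 kinesin genes in each of the 6 libraries, stacked by role with Kif23 apart. The 4 MII libraries reach between 2773 and 2963 FPKM against 958 and 1099 FPKM in WT_FGO, and Kif23 and the other spindle and division kinesins account for the added height.

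Which kinesin mRNAs took more or less of a library's footprints after maturation was asked by comparing WT_MII with WT_FGO. Since FPKM is scaled to library size, an absolute gain or loss of ribosomes cannot be read from it. Kif23, Kif20a and Kif20b, motors of cytokinesis, and Kif2c, a motor of chromosome attachment, rose by between 4.55-fold and 7.61-fold in mean FPKM. These were the 4 called higher of 37 members tested (adjusted p under 0.05, limma), where 3.67% of all 15127 tested genes were called higher, and 0 members were called lower, where 3.09% of all tested genes were. At an unadjusted p under 0.05, 6 members were higher and 2 lower, beside 3443 of all 15127 tested genes in either direction. A count-based fit on the recovered reads (voom) called 6 higher and 1 lower of 35, beside 803 higher and 1575 lower of 14545 genes. All 4 called by limma belong to the 12 tested spindle and division kinesins, of which 10 had a positive and 2 a negative change. The median log2 change of these 12 was 1.53 on the log2(FPKM + 1) scale, beside -0.44 over all tested genes. Kif2b, the remaining spindle kinesin, was at 0 in 4 libraries and had 1 read in each Treat_MII library, too little for a test.

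Kif23 encodes MKLP1, the motor subunit of centralspindlin, which bundles microtubules at the central spindle and is needed for cytokinesis. The gene lies at chr9:61915905-61946774 on the minus strand (GRCm38). Its level was 175 and 189.6 FPKM in WT_FGO, against 1227 and 1553 in WT_MII and 1292 and 1365 in Treat_MII. The groups at GV and MII did not overlap, and both Treat_MII libraries lay between the 2 WT_MII libraries. The means were 183 ± 10.03 and 1389.5 ± 231 FPKM in WT_FGO and WT_MII (SD, n = 2), and the change was 2.91 ± 0.23 on the log2(FPKM + 1) scale (SE, adjusted p = 0.00288 by limma). Kif23 was the most read kinesin, with 4067 reads over the 6 libraries, and at 587 and 1040 reads in WT_MII its counting error was the smallest of the family.

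Kif20b and Kif20a are relatives of Kif23 that also act at the central spindle, Kif20a by bringing the chromosomal passenger complex there. Kif20b was at 35.4 and 31.1 FPKM in WT_FGO, against 200.03 and 173 in WT_MII and 205 and 163 in Treat_MII. Its change from GV to MII was 2.45 ± 0.36 (log2 scale, SE, adjusted p = 0.0180 by limma), a ratio of means of 5.60. Kif20a stood at 81.1 and 74.7 FPKM in WT_FGO, against 280.2 and 429 in WT_MII and 368 and 304 in Treat_MII. Both genes were higher in each MII library than in either WT_FGO library, and their treated and control MII libraries overlapped. The change of Kif20a was 2.14 ± 0.34 (log2 scale, SE, adjusted p = 0.0226 by limma), a ratio of means of 4.55.

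Kif2c encodes MCAK, a motor that does not walk but removes tubulin from microtubule ends at centromeres and so helps to correct wrong attachments. It was at 29.4 and 60.3 FPKM in WT_FGO, against 229 and 218 in WT_MII and 261 and 315 in Treat_MII. The 3 groups did not overlap, with WT_FGO lowest and Treat_MII highest. The change from GV to MII was 2.38 ± 0.44 (log2 scale, SE, adjusted p = 0.0334 by limma). Of the 28-base words in its coding sequence, 9.02% are found in other genes' transcripts too, where part of its reads could have been placed. For Kif23, Kif20a and Kif20b no such word was shared.

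The other kinesin genes of the spindle with enough reads were Kif18a, Kif4, Kif15, Kif14 and Kif2a, and none of them passed the test. Kif18a, a kinesin-8 motor that limits chromosome movement at the metaphase plate, was at 0 and 10.5 FPKM in WT_FGO, against 41.0 and 91.2 in WT_MII and 104 and 124 in Treat_MII. The 3 groups were ordered without overlap, but WT_FGO rested on 3 reads. Its fitted change was 4.20 ± 1.18 (log2 scale, SE, adjusted p = 0.0969 by limma), and the ratio of the pooled reads was 12.6, with an exact 95% interval of 4.13 to 62.3 that covers counting error only. Kif4, a chromokinesin that binds Prc1 on the central spindle, was at 68.9 and 75.7 FPKM in WT_FGO, against 153 and 163 in WT_MII and 199 and 177 in Treat_MII. Its groups were ordered in the same way, and its change was 1.12 ± 0.33 (log2 scale, SE, adjusted p = 0.110 by limma). Voom called both genes higher as well, with adjusted p = 0.00145 for Kif18a and 0.0371 for Kif4, and over 15 alternative settings the adjusted p of Kif4 ran from 0.0371 to 0.405 and that of Kif18a from 0.00145 to 0.399.

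Kif2a, a depolymerizing motor of the same family as Kif2c that acts at spindle poles, was at 37.6 and 86.7 FPKM in WT_FGO, against 10.7 and 21.1 in WT_MII and 32.1 and 17.7 in Treat_MII. Both WT_FGO libraries lay above the other 4, the opposite order to Kif2c, and the change was -1.85 ± 0.70 (log2 scale, SE, adjusted p = 0.186 by limma). Kif14, which binds citron kinase in cytokinesis, was at 44.3 and 83.5 FPKM in WT_FGO, against 48.3 and 47.4 in WT_MII and 55.3 and 60.7 in Treat_MII, and WT_MII lay inside the range of WT_FGO. Kif15, a motor that slides antiparallel microtubules and can keep spindles bipolar, was at 89.1 and 99.5 FPKM in WT_FGO, against 300.1 and 39.3 in WT_MII and 59.6 and 40.4 in Treat_MII. The library WT_MII_1 stood far above the other 5, with 218 reads against 40 in WT_MII_2, so the SD of WT_MII was 184 FPKM around a mean of 169.7 FPKM. WT_MII_1 was also the library with the highest summed granulosa and cumulus markers, 2256 FPKM, of which Hsd17b1, an estrogen-forming enzyme of granulosa cells, gave 1956 FPKM. Most of that sum was this gene alone, and the sum says little about the other markers. Whether granulosa or cumulus cells had a part in the Kif15 value was not tested.

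**Figure D2:**
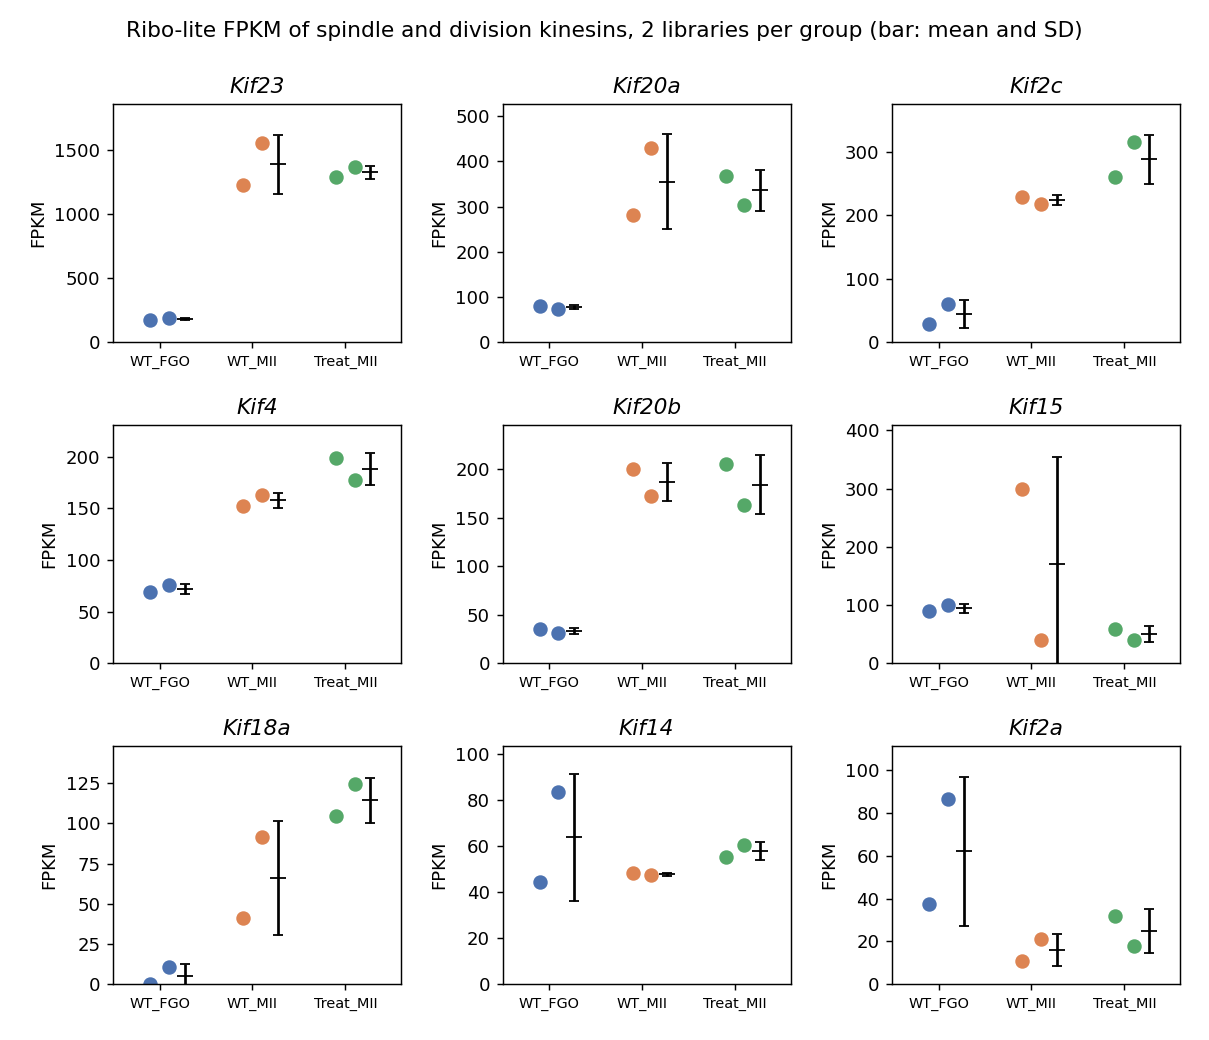
FPKM of the 9 spindle and division kinesins with at least 60 recovered reads, each panel with its own axis from 0. Points are the 2 libraries of each group, black bars the mean and SD (cut at 0), and Kif23, Kif20a, Kif20b and Kif2c stand higher in all 4 MII libraries than in WT_FGO while Kif15 splits the 2 WT_MII libraries at 300.1 and 39.3 FPKM.

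The 3 spindle kinesins with fewer reads that could be tested were Kif18b, Kif22 and Kif11, and they had between 27 and 59 reads each. Kif11, the motor known as Eg5 that pushes spindle poles apart in mitotic cells, was at 0 and 8.86 FPKM in WT_FGO, against 13.4 and 4.12 in WT_MII and 12.4 and 3.45 in Treat_MII. These values rested on 0 to 13 reads, the groups overlapped, and 13.6% of its 28-base words are shared with a related sequence. The ratio of WT_MII to WT_FGO was 1.70 with an exact 95% interval of 0.437 to 9.60 in pooled reads, which left a change undetectable at this depth. Per length, Kif23 was read far more than any other spindle kinesin, followed in WT_MII, with Kif15 set aside for its spread, by Kif20a, Kif2c, Kif20b and Kif4, whose mean levels of 355, 224, 186 and 158 FPKM came from libraries that did not overlap between neighbours.

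The 4 calls depended on which libraries entered the fit. With both Treat_MII libraries left out, 0 of the 15127 genes were called in this comparison, the kinesins included, and with either Treat_MII library left out 0 genes were called too. Without the mean-variance trend 0 kinesins were called. Without WT_MII_1 3 members were called and without WT_MII_2 2, and without WT_FGO_1 or WT_FGO_2 the counts were 3 and 5. The direction of all 4 changes was the same under each of 15 alternative settings, and the adjusted p of Kif23 ran from 8.97e-23 to 0.116 over them. Nothing states whether the replicates came from separate cultures or animals, beyond the supplement's naming them biological replicates, so the p-values measure only the spread between these libraries.

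Treated MII oocytes stood above the GV stage for the same 4 kinesins. Comparing Treat_MII with WT_FGO, 4 members were called higher, where 2.86% of all tested genes were, and 0 lower, where 1% were. At an unadjusted p under 0.05, 6 members were higher and 3 lower, beside 3011 of all 15127 tested genes in either direction. Voom called 6 members higher and 4 lower of 35, beside 850 higher and 1984 lower of 14545 genes. The changes were 2.86 for Kif23, 2.74 for Kif2c, 2.43 for Kif20b and 2.09 for Kif20a (log2 scale, adjusted p = 0.00327, 0.0287, 0.0242 and 0.0322 by limma). This comparison shares the WT_FGO libraries with the one above, so the 2 are not independent. Kif18a had a change of 5.08 ± 1.18 (adjusted p = 0.0808 by limma) and Kif4 of 1.36 ± 0.33 (adjusted p = 0.0894 by limma). The call of Kif20a was lost with the replicate number as a block (adjusted p = 0.0576, with a range of 5.40e-06 to 0.196 over 15 settings), and Kif18a was called there (adjusted p = 0.0477, with a range of 3.08e-05 to 0.400). Without WT_MII_1, and likewise without WT_MII_2, 1 member was called, and without either Treat_MII library 0 were.

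Cargo transport kinesins were read at far lower levels. The highest mean over the 6 libraries was 35.5 FPKM, for Kif3a, and 12 of them had under 60 reads or reads that could not be recovered. During maturation 0 of the 16 were called by limma in either direction, 1 was lower at an unadjusted p under 0.05, and voom called the same gene, Kif17. Of the 16, 12 had a negative and 4 a positive change, and the median was -0.56 on the log2 scale beside -0.44 over all tested genes. The median was -0.03 after centring each library on its median, a step that moved the median of all genes from -0.44 to 0.09, and on both scales it lay close to that of all genes.

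Kif17, a kinesin-2 motor known from dendrites and cilia, was at 30.6 and 44.9 FPKM in WT_FGO, against 11.7 and 4.17 in WT_MII and 4.84 and 3.49 in Treat_MII. Both WT_FGO libraries lay above the other 4, on 9 and 15 reads against 3 to 6. The change was -2.23 ± 0.79 from WT_FGO to WT_MII and -2.89 ± 0.79 from WT_FGO to Treat_MII (log2 scale, SE, adjusted p = 0.160 and 0.114 by limma). Voom called it lower in both comparisons (adjusted p = 0.0209 and 0.00251), and its adjusted p ran from 0.0209 to 0.296 and from 0.00251 to 0.329 over the alternatives.

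Kif21a, a kinesin-4 motor that restrains microtubule growth, was at 44.1 and 40.6 FPKM in WT_FGO, against 31.2 and 31.7 in WT_MII and 11.3 and 15.8 in Treat_MII. The 3 groups did not overlap and Treat_MII was lowest. The change from WT_FGO to Treat_MII was -1.59 ± 0.53 (log2 scale, SE, adjusted p = 0.172 by limma), and that from WT_MII to Treat_MII was -1.17 ± 0.53 (adjusted p = 0.898 by limma). Kif3a, the motor subunit of heterotrimeric kinesin-2, was at 58.3 and 42.8 FPKM in WT_FGO, against 33.4 and 29.8 in WT_MII and 23.5 and 25.0 in Treat_MII, also without overlap. These values came from 10 to 17 reads per library. Kif5b, a heavy chain of conventional kinesin, was at 22.0 and 45.2 FPKM in WT_FGO, against 12.6 and 10.5 in WT_MII and 11.5 and 23.9 in Treat_MII, on 6 to 19 reads. Kif13b, a kinesin-3 motor, was at 11.4 and 13.4 FPKM in WT_FGO, against 14.1 and 11.6 in WT_MII and 13.0 and 6.50 in Treat_MII, with overlap between all groups.

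The other 11 transport kinesins, Kif1a, Kif1b, Kif1c, Kif3b, Kif3c, Kif5a, Kif5c, Kif13a, Kif16b, Kif21b and Kif28, reached at most 31.2 FPKM in any library. Those whose reads were recovered had 5 to 57 reads in all. Kif1a, a vesicle motor of axons, had 2 reads in each WT_FGO library and 8, 1, 1 and 0 in the others.

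**Figure D3:**
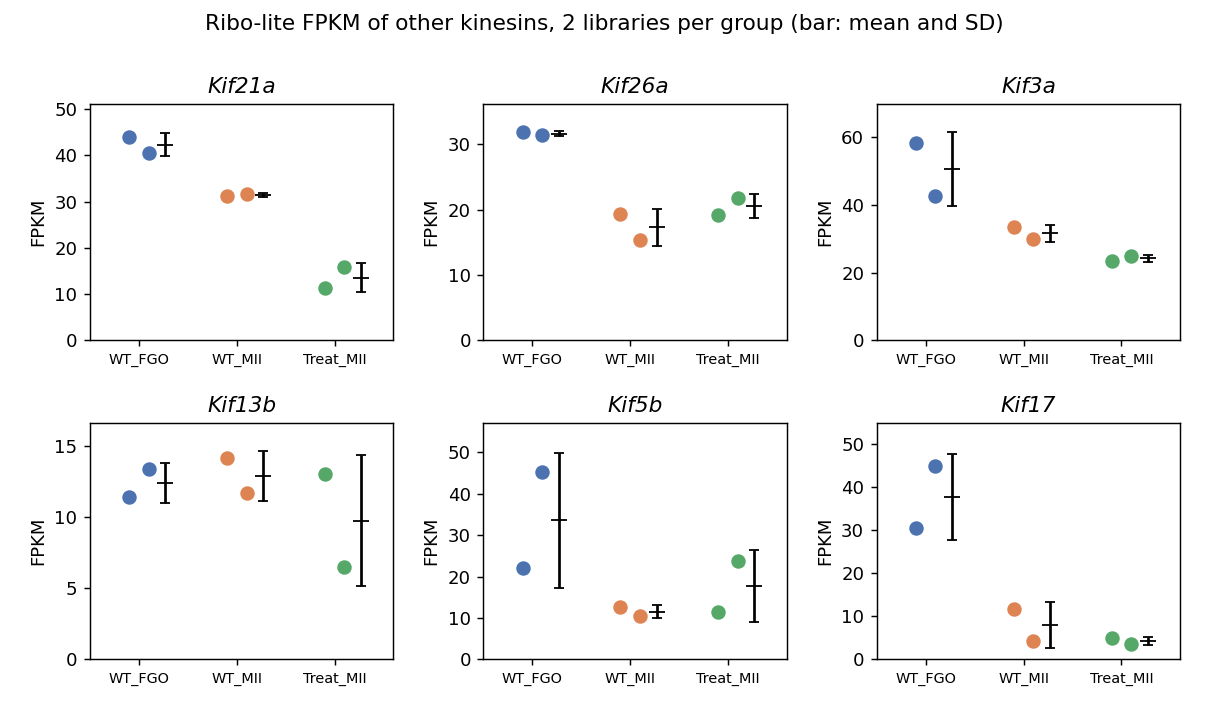
FPKM of the 5 cargo transport and other kinesins with at least 60 recovered reads, and of Kif17, each panel with its own axis from 0. Points are the 2 libraries of each group and black bars the mean and SD, and Kif21a, Kif3a and Kif17 stand highest in WT_FGO whereas Kif13b overlaps between all groups.

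The 9 kinesins of cilia, flagella or other functions were near the limit of detection, except Kif26a. Kif26a, a kinesin that binds microtubules without motor activity, was at 31.9 and 31.4 FPKM in WT_FGO, against 19.3 and 15.3 in WT_MII and 19.3 and 21.9 in Treat_MII. Both WT_FGO libraries lay above the other 4, with a change of -0.84 ± 0.54 to WT_MII (log2 scale, SE, adjusted p = 0.476 by limma). The other 8 had between 4 and 43 reads over the 6 libraries and at most 13.1 FPKM in any of them. Kif9, a motor of the sperm flagellum, was at 7.93 and 10.5 FPKM in WT_FGO, against 4.54 and 6.48 in WT_MII and 1.13 and 0 in Treat_MII, on 0 to 4 reads. Its change from WT_FGO to Treat_MII was -2.79 ± 0.95 (log2 scale, SE, adjusted p = 0.182 by limma, 0.0173 by voom, with a range of 0.0173 to 0.406 over 15 settings). In maturation 0 of the 9 were called by limma or by voom and 0 had an unadjusted p under 0.05. Kif19a, Kif27, Kif6, Kif7 and Kif12, motors or motor-like proteins studied mainly in ciliated tissues, had 10 reads or fewer. Kif7, which acts in hedgehog signaling, had 5 and 1 reads in WT_FGO and 1 and 0 in WT_MII, a ratio of pooled reads of 0.0849 with an exact 95% interval of 0.00185 to 0.699 that covers counting error only, and its adjusted p was 0.432 by limma. For the other 4 the interval of this ratio included 1.

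Whether BYBX changed the reading of kinesin mRNAs was asked by comparing Treat_MII with WT_MII. No kinesin passed the test. Of 37 members, 0 were called higher and 0 lower by limma, 0 had an unadjusted p under 0.05, and voom called 0 of 35. Over all tested genes 0% were called higher and 0% lower, with 882 genes at an unadjusted p under 0.05, while voom called 65 genes higher and 100 lower. The 12 tested spindle and division kinesins were divided evenly, 6 with a positive and 6 with a negative change, and the median was 0.11 beside 0 over all tested genes. Of the 16 transport kinesins 12 were negative and 4 positive, with a median of -0.37, and of the 9 others 6 were negative and 3 positive, with a median of -0.27.

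The precision differed between members. For Kif23 the change under treatment was -0.06 with a 95% interval of -0.62 to 0.51 on the log2 scale, and a change of 1 log2 unit in either direction lay outside it. For Kif20b it was -0.02 with an interval of -0.91 to 0.87, for Kif20a -0.05 with -0.89 to 0.79, and for Kif2c 0.36 with -0.71 to 1.42. Kif4 had a change of 0.25 with an interval of -0.56 to 1.05. The intervals of Kif18a (-1.98 to 3.75) and Kif15 (-3.39 to 1.12) were several log2 units wide. These tests did not show that the levels were equal.

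The largest treatment changes of limma in size among members with 60 reads or more were those of Kif21a, -1.17 with an interval of -2.46 to 0.11, and Kif15, -1.14, which rested on WT_MII_1. Groups did not overlap in 5 members that were higher in Treat_MII, Kif2c, Kif18a, Kif4, Kif14 and Kif3c, where 16.2% of all tested genes were separated in that direction. They did not overlap in 8 that were lower, Kif9, Kif21a, Kif1a, Kif26b, Kif19a, Kif12, Kif1b and Kif3a, where 15.6% of all tested genes were. In maturation 9 members were higher without overlap (15.3% of all tested genes) and 12 lower (25.8%), and between WT_FGO and Treat_MII 6 were higher (16.6%) and 14 lower (28.9%).

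**Figure D4:**
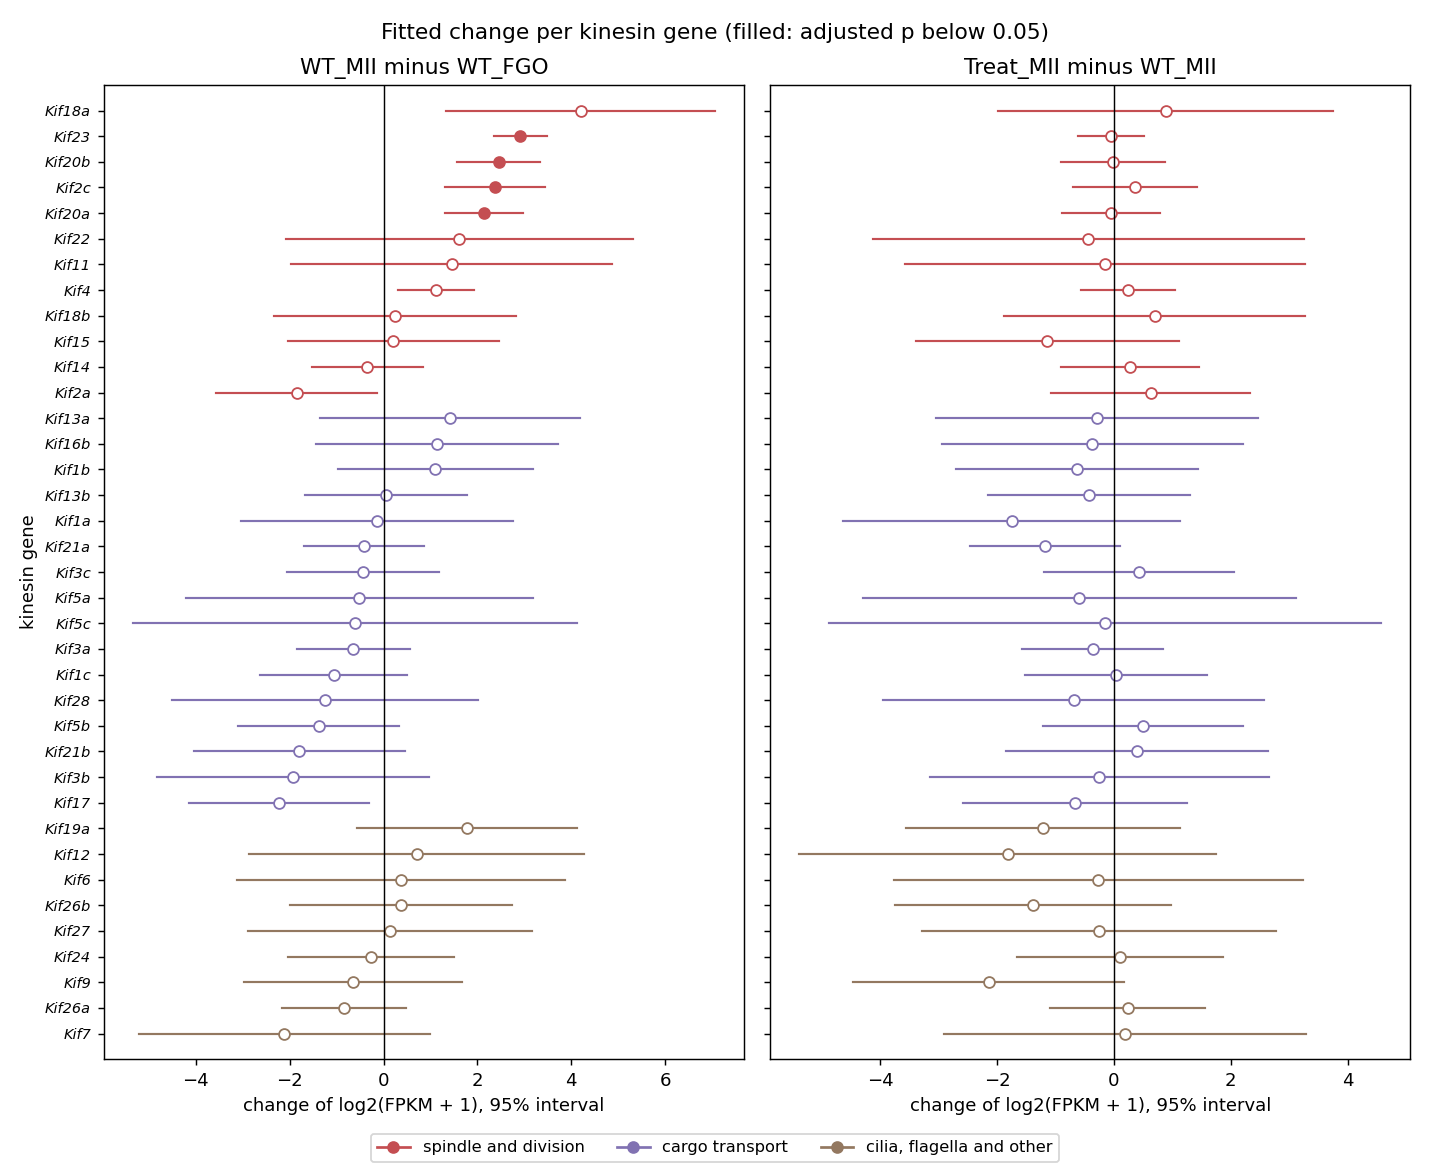
Fitted change of each of the 37 tested kinesins on the log2(FPKM + 1) scale with its 95% interval, for WT_MII minus WT_FGO on the left and Treat_MII minus WT_MII on the right, colored by role. Filled points have an adjusted p under 0.05, which held for Kif23, Kif20b, Kif2c and Kif20a on the left and for no gene on the right.

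Since the compound binds rG4s, the kinesin mRNAs were searched for the rG4 sequence pattern, 4 runs of at least 3 G with 1 to 7 bases between runs, on the strand of the mRNA. The transcript with the longest complete coding sequence in GENCODE release 21 was used for each gene. The pattern was present in 10 of 38 kinesins, beside 19.8% of the 14825 tested genes that have such a transcript. None of the 13 spindle and division kinesins held it in the 5′-UTR, coding sequence or 3′-UTR, and all 10 were among the other 25 kinesins. It lay in the 5′-UTR in 3 kinesins (7.0% of all tested genes), in the coding sequence in 4 (4.51%) and in the 3′-UTR in 5 (10.5%). The 3 matches in 5′-UTRs and that in the 3′-UTR of Kif21b are shown with the runs in capitals, because the study's compound binds structures formed by such runs.
Kif17 5′-UTR: GGGacGGGcgagcccGGGcgcGGG
Kif1a 5′-UTR: GGGaGGGGcttGGGGaGGG
Kif27 5′-UTR: GGGGGcctGGGcgcGGGccggaGGG
Kif21b 3′-UTR: GGGGtGGGGtGGGGtGGGGG
These lie at chr4:138262308-138262331 on the plus strand for Kif17, chr1:93101904-93101922 on the minus strand for Kif1a, chr13:58358870-58358894 on the minus strand for Kif27 and chr1:136174810-136174829 on the plus strand for Kif21b (GRCm38).

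The tested kinesins with the pattern had treatment changes between -1.75 and 0.40 on the log2 scale, 5 positive and 5 negative, with a median of -0.11. The 27 without it ranged from -2.14 to 0.88, 8 positive and 19 negative, with a median of -0.25. Kif17, Kif1a and Kif27, which hold the pattern in the 5′-UTR, had treatment changes of -0.66, -1.75 and -0.26, on at most 9 reads per MII group, and Kif21b had a change of 0.40. The matches are letters in an annotated mRNA, and whether they fold was not measured here.

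Translation of stored oocyte mRNAs is also known to depend on cytoplasmic polyadenylation elements (CPEs), U-rich signals near the end of the 3′-UTR. TTTTAT or TTTTAAT on the mRNA strand occurred within the last 100 bases in 6 of the 35 kinesins whose annotated 3′-UTR is that long, and in 18.7% of 13618 tested genes. It was present in 3 of 12 spindle and division kinesins, Kif20b, Kif18a and Kif11, in 0 of 14 transport kinesins and in 3 of 9 others, Kif26a, Kif26b and Kif27. Of these genes Kif26a was lower in WT_MII than in WT_FGO without overlap, with a change of -0.84. The WT_MII and WT_FGO groups of Kif11, Kif26b and Kif27 overlapped. The motif is in capitals in the 3 spindle kinesins, shown because Kif20b and Kif18a stand among the genes that were higher at MII without overlap.
Kif20b 3′-UTR: ataaTTTTAATtcaataaatatatcagtaa
Kif18a 3′-UTR: aataTTTTATtacttggtatattaaagatg
Kif11 3′-UTR: aattttttaaattaaattaTTTTAATtttt
The windows are chr19:34975704-34975733 for Kif20b, chr2:109341707-109341736 for Kif18a and chr19:37421830-37421859 for Kif11, each on the plus strand (GRCm38). In Kif20b, Kif18a and Kif11 a polyadenylation signal, AATAAA or ATTAAA, begins 19, 21 and 20 bases before the annotated end, within the printed window. In Kif11 the CPE begins 11 bases before that end, after the signal. Of the 35 kinesins with at least 100 bases of 3′-UTR, 27 held a signal in the last 40 bases, beside 75.3% of tested genes. Kif23, Kif20a, Kif2c and Kif4 had neither CPE spelling in the last 100 bases, which says only that these letters are not in that window of the annotated transcript.

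Among 11 kinesins named otherwise and kinesin light chains or adaptors, limma called 1 higher and 0 lower during maturation, where 3.67% and 3.09% of all tested genes were. At an unadjusted p under 0.05, 2 were higher and 0 lower. By voom 2 of 10 were higher, Cenpe and Kifc1, beside 803 of 14545 genes. The gene called by limma was Cenpe, the kinetochore motor that moves chromosomes to the metaphase plate. Cenpe was at 37.2 and 50.3 FPKM in WT_FGO, against 244 and 232 in WT_MII and 241 and 227 in Treat_MII. The MII libraries lay above both WT_FGO libraries, and the change was 2.43 ± 0.34 (log2 scale, SE, adjusted p = 0.0154 by limma). Its treatment change was -0.03.

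The partners of kinesins on the spindle moved in both directions. Under treatment limma called 0 of 18 such genes and 4 had an unadjusted p under 0.05. There voom called 2 higher, Tacc3 and Aspm, and 14 of the 18 had a positive change. From WT_FGO to WT_MII limma called 5 higher and 4 lower, where 3.67% and 3.09% of all tested genes were. By voom 6 were higher and 6 lower of 18, beside 803 and 1575 of 14545 genes. The 4 largest in size were Haus1 and Anln, Tacc3 and Prc1. Prc1, which crosslinks antiparallel microtubules at the central spindle and recruits Kif4, was at 50.9 and 134 FPKM in WT_FGO, against 1002 and 1485 in WT_MII, a change of 3.87 ± 0.48 (adjusted p = 0.0105 by limma). Anln, a scaffold of the cleavage furrow, was at 3.01 and 5.30 FPKM in WT_FGO, against 149.7 and 207 in WT_MII, a change of 5.14 ± 0.48 (adjusted p = 0.00441 by limma). Both were higher in each WT_MII library, as were Kif23 and Kif20a. Tacc3, a spindle microtubule stabilizer, was at 1073 and 914 FPKM in WT_FGO, against 37.7 and 42.7 in WT_MII and 132 and 145 in Treat_MII, a maturation change of -4.59 ± 0.31 (adjusted p = 0.00194 by limma). Haus1, a subunit of augmin, was at 58.3 and 20.5 FPKM in WT_FGO and at 0 in both WT_MII libraries. Augmin branches new microtubules from existing ones. In a coding sequence of 1 kb, 1 read was worth 10.6 and 9.32 FPKM in the WT_FGO libraries. The WT_FGO values of Anln therefore rested on few reads, and those of Haus1 can as well.

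Dynein is the motor that walks the other way along microtubules, and dynactin is its cofactor. Of 28 tested genes of the pair limma called 1 higher and 5 lower from WT_FGO to WT_MII, where 3.67% and 3.09% of all tested genes were. By voom 1 was higher and 9 lower of 28, beside 803 and 1575 of 14545 genes. The median change was -1.33 beside -0.44 over all tested genes. Dynlt1b, a dynein light chain, was at 563 and 578 FPKM in WT_FGO, against 53.6 and 25.6 in WT_MII, and the change was -3.91 ± 0.70 (log2 scale, SE, adjusted p = 0.0316 by limma). Nde1, a dynein regulator at kinetochores, was at 0 in both WT_FGO libraries and at 43.3 and 31.0 FPKM in WT_MII. Dctn2 and Dctn6, subunits of dynactin, were at 26.4 and 38.7 FPKM and at 56.6 and 87.0 FPKM in WT_FGO. In WT_MII Dctn2 was at 0 in both libraries and Dctn6 at 8.08 and 11.5 FPKM. The reads behind Nde1, Dctn2 and Dctn6 are not given, and at this depth such levels can rest on few reads. No gene of this list was called by limma under treatment, where 3 had an unadjusted p under 0.05 and voom called 1 higher, Spdl1.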

How the data were processed

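The authors deposited 1 table of FPKM values (fragments scaled to gene length and library size) of 22442 gene rows for 6 Ribo-lite libraries. Per the labels, cutadapt 1.14, Bowtie2 2.2.2, STAR 2.5.3a and the mm10 build were used, and the counting program is not given in the sources used here. For names occurring more than once the first row was kept, and the 26 later rows were left out. FPKM multiplied by coding length (GENCODE release 21) came out at whole reads, within 0.02, in all 6 libraries for 98.4% of 21962 genes and for 36 of the 38 kinesins, not for Kif1b and Kif13a. The 15127 genes averaging 1 FPKM or more were tested on log2(FPKM + 1) with limma 3.58.1 in R 4.3.3, with 1 fit of all libraries, a mean-variance trend and Benjamini-Hochberg adjustment. Fitted changes therefore understate those of low genes. The alternatives were another pseudocount, filter, scaling, trend and set of libraries, a replicate block, and voom on recovered reads. Replicate numbers did not pair libraries (correlation of same-numbered deviations of log2(FPKM + 1) 0.02 to 0.03 over 2706 genes). Kinesins with 60 or more reads were named with every value. The rule gave their fitted changes for an adjusted p under 0.05, or an unadjusted p under 0.05 without overlap of groups. The maturation change of Kif26a and the treatment changes of single kinesins were given outside this rule. From other lists at most 4 called genes were named. Hsd17b1 and low kinesins outside the rule were chosen after their values were seen. The members and lists were chosen with earlier results of these data known. Sequences came from GENCODE transcripts and were checked against the GRCm38 genome. Scripts were tested on simulated data.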

Additional observations from a re-analysis of the deposited data

How the results depend on the processing

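For kinesins with an adjusted p under 0.05, or an unadjusted p under 0.05 without overlap of groups, no fitted change turned its sign under an alternative. None of these changes was under treatment. The treatment changes of single kinesins were not followed over all settings, and that of Kif20b was -0.02 by limma and 0.005 by voom. The median of the cilia and other group did turn its sign, as given below. Under treatment 0 kinesins were called at every setting. The number of kinesins called higher was 4 in maturation and 4 between WT_FGO and Treat_MII. Both counts were 0 when only the groups compared entered the fit and 0 without the mean-variance trend, and with a single library left out they ran from 0 to 5 and from 0 to 5. Voom on recovered reads called 1 kinesin lower in maturation, where limma called 0, and 4 lower between WT_FGO and Treat_MII, where limma called 0, and the cause was not tested. With a replicate block both counts of kinesins called higher were 4, and the numbers did not pair the libraries. Over all genes, maturation gave 555 higher and 468 lower, 188 and 140 without the trend, 803 and 1575 by voom, 453 and 335 with the block, 736 and 286 after median centring, 0 and 0 with only the groups compared, and 0 to 902 higher and 0 to 1066 lower with a library left out. Median centring changed the share of higher calls, so the counts of higher and lower genes depend on the scaling. WT_FGO against Treat_MII gave 433 and 152 genes, 56 and 3 without the trend, 850 and 1984 by voom, 363 and 73 with the block, 664 and 49 after median centring, and 31 and 1 with only those groups. With a library left out, treatment called 0 to 398 genes higher and 0 to 387 lower, beside 0 and 0. The median change of spindle and division kinesins in maturation stayed between 1.02 and 2.28, that of transport kinesins was negative under all 15 settings (-1.04 to -0.03), and that of the cilia and other group was 0.14 and changed sign (-0.71 to 0.72, negative under 6 settings). The last group's medians under treatment and between WT_FGO and Treat_MII, -0.27 and -0.60, each turned positive under 1 setting (0.10 and 0.02). Depth limits the 22 kinesins with fewer than 60 recovered reads.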
